A study of Homo sapiens with 54 samples.

Results

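The clustered histone genes are described here in poly(A)-selected RNA. They were taken as every gene whose older symbol begins with HIST1H, HIST2H, HIST3H or HIST4H, after names that end as a pseudogene's were dropped. Of 55906 gene rows in each table, 89 names matched, 14 pseudogene names were dropped and 75 genes remained. They comprised 6 H1 linker histone genes and 17 H2A, 23 H2B, 14 H3 and 15 H4 core histone genes. The large HIST1 cluster on chromosome 6 held 55 of them, HIST2 and HIST3 on chromosome 1 held 15 and 4, and HIST4 on chromosome 12 held 1. RefSeq listed 70 of the 75 as protein-coding and 5 as a pseudogene of some kind (HIST2H2BA, HIST2H2BB, HIST2H2BC, HIST2H2BD and HIST3H2BA), which the choice by name kept.

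These genes supply the bulk histones that package newly copied DNA, and they are transcribed mostly in S phase. Their messages are unusual among animal mRNAs because they normally end just after a conserved stem-loop and carry no poly(A) tail. The stem-loop is bound by SLBP, and the cut after it depends on the U7 snRNP and on cleavage factors such as CPSF3 and SYMPK. Some clustered genes can also be read past the stem-loop to a downstream polyadenylation signal, and that form is the one that oligo(dT) beads retain. A library made from poly(A) RNA therefore samples mainly the tailed form of these messages, with some carry-over of RNA without a tail.

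The study perturbed TRA2A and TRA2B, paralogous serine- and arginine-rich-like proteins that bind purine-rich exonic sequences and promote exon inclusion, and sequenced 54 libraries in 18 groups of 3. A549 and NCI-H23, both lung cancer lines that stably carried the repressor Zim3-dCas9 (CRISPRi), received guides against control loci (Control KD), TRA2A (TRA2A KD), TRA2B (TRA2B KD) or both (TRA2A/B DKD), and were collected at day 5. LN229 and LN319, both glioma lines, carried either luciferase (Luc) or a TRA2B cDNA (TRA2B-OE) and were transduced with Cas9 and a guide, with collection at day 7. Their groups were Luc Control KO, Luc TRA2A KO, Luc TRA2B KO, TRA2B-OE Control KO and TRA2B-OE TRA2A KO. All groups were transduced cell populations and not clones, so a knockout group could still contain unedited cells. In such bulk RNA, a smaller share of cells in one state and less RNA per cell cannot be told apart. Nothing in the labels says whether the 3 replicates of a group were separate cultures, so the p-values measure only the spread between these libraries.

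The targeted genes were called lower in each group labelled for their loss except LN229 TRA2B-OE TRA2A KO. In TPM, a level corrected for transcript length and for the library's total, TRA2A averaged 75.1 ± 5.08 in A549 Control KD and 10.4 ± 0.693 in TRA2A/B DKD, and TRA2B averaged 137 ± 3.17 and 22.4 ± 4.72 (SD, n = 3 each). In NCI-H23, TRA2A averaged 105 ± 2.55 and 21.5 ± 1.58, and TRA2B 92.2 ± 11.3 and 23.3 ± 1.20, in the same groups. The glioma knockouts left more message, with TRA2A at 68.8 ± 4.82 against 109 ± 3.31 TPM in LN229 and at 35.5 ± 2.44 against 107 ± 5.65 TPM in LN319. TRA2B fell less in LN229 (147 ± 3.69 against 222 ± 18.0 TPM) than in LN319 (30.8 ± 1.58 against 87.6 ± 3.59 TPM) after the matching knockout, although a residual message level says little about protein after gene editing. In Luc TRA2B KO, TRA2A was called higher in LN229 (log2 fold change 0.59, limma adjusted p = 0.00547) and lower in LN319 (-0.35, adjusted p = 0.00415). With TRA2B overexpressed, TRA2A averaged 69.9 ± 5.20 TPM after TRA2A KO against 80.2 ± 4.85 in LN229, which was not called (log2 fold change -0.22, limma adjusted p = 0.0804), and 48.1 ± 4.95 against 91.1 ± 2.80 TPM in LN319 (-0.87, adjusted p = 0.000927). As markers of cell identity, KRT8 group means were 488 to 2867 TPM in the lung lines, 92.8 to 122 in LN319 and 32.3 to 41.4 in LN229. KRT18 was at 1015 to 3072 TPM in the lung lines and 72.6 to 184 in the glioma lines. KRT7 was at 3594 to 3807 TPM in A549 but 2.10 to 3.95 in NCI-H23, below LN229 (18.0 to 68.4) and LN319 (7.20 to 15.0). EPCAM stayed at 2.99 TPM or less in any group. The epithelial cadherin CDH1 was highest in the glioma line LN319, with group means of 120 to 143 TPM there, 8.77 to 21.7 in A549, 0.711 to 1.94 in NCI-H23 and at most 0.503 in LN229. The lung marker NKX2-1 was likewise highest in LN319, at 5.81 to 16.6 TPM, and at most 0.771 TPM in a group mean of the lung lines. VIM was abundant in every line. SOX2 was at 25.2 TPM or more in the glioma groups and 1.01 or less in the lung groups, and NES at 217 to 273 TPM in LN229 but only 6.47 to 13.99 in LN319, against at most 2.37 in the lung lines. The glial marker GFAP was at most 3.57 TPM in any group. S100B was at 85.2 to 974 TPM in LN229 and too low for a test in the other lines. OLIG2 was at 6.63 to 13.8 TPM in LN229 and 1.03 to 2.26 in NCI-H23, and too low for a test in A549 and LN319. Of 3 listed markers of other cells (PTPRC, PECAM1 and CD3E), 0 had levels high enough for a test in any line. The T-cell gene CD3E did not exceed 0.0571 TPM in any group mean.

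The hallmark of these genes is the stem-loop, and it is shown for 10 members because the values below turn on them. The search pattern was 16 bases long and read GG, 2 bases of any kind, CTT, 1 of any kind, T, 1 of any kind, AG, 2 of any kind and CC. It was looked for on the coding strand alone, in the 150 bases after the stop codon of the GRCh38 genome with Gencode release 44 models. All 70 members with a protein-coding model held it, at 22 to 67 bases from the stop codon (median 35), whereas 73 of 19919 protein-coding genes (0.366%) held it in all. The 3 others were H2AX, H3-7 and TIPARP. In the lines that follow, capitals mark the stem-loop and each site is read 5′ to 3′ on the strand of its gene. HIST1H1C, HIST1H2AC, HIST1H2BD, HIST1H2BK, HIST2H2BE, HIST2H4A and HIST4H4 were called higher in both double knockdowns, HIST1H2BL was called lower in 1, and HIST1H4A and HIST1H4C were not called.
HIST1H1C, chr6:26055739-26055764, minus strand: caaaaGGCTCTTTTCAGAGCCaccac
HIST1H2AC, chr6:26124664-26124689, plus strand: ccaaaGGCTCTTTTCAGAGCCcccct
HIST1H2BD, chr6:26158582-26158607, plus strand: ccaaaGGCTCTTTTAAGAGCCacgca
HIST1H2BK, chr6:27146361-27146386, minus strand: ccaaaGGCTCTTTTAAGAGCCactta
HIST2H2BE, chr1:149886183-149886208, minus strand: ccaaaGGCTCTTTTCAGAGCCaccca
HIST2H4A, chr1:149833027-149833052, plus strand: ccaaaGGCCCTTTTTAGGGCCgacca
HIST4H4, chr12:14770719-14770744, minus strand: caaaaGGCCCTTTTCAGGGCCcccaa
HIST1H4A, chr6:26022025-26022050, plus strand: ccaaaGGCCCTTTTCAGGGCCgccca
HIST1H4C, chr6:26104312-26104337, plus strand: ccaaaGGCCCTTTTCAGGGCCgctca
HIST1H2BL, chr6:27807479-27807504, minus strand: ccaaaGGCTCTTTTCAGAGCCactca

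The 70 stem-loops fell into 10 distinct sequences. The commonest, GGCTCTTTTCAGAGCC, was found in 40 members, and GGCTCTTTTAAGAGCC and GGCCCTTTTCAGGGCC in 10 members each. HIST2H2BE, called higher in both double knockdowns, and HIST1H2BL, called lower in A549 and not called in NCI-H23, thus carry the same stem-loop. So do HIST4H4, called higher in both, and HIST1H4A, called in neither. The differences between these genes were not tested, nor was any stem-loop sequence against the response.

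The members were far from equally abundant. Over the mean of the 4 line means, HIST1H2BK, an H2B gene at chr6:27138293-27146858 in RefSeq (GRCh38), stood highest at 111 TPM, and the linker histone gene HIST1H1C followed at 77.6 TPM. HIST2H2AA4, HIST2H4A, HIST1H2BD, HIST1H2AC, HIST1H2BJ and HIST2H4B completed the 8 most abundant members. Together these 8 held 46.1 to 72.2% of the summed histone TPM in A549 libraries, 64.5 to 72.0% in NCI-H23, 64.1 to 72.9% in LN229 and 56.9 to 69.8% in LN319. Many members were near the floor, and between 30 and 59 of the 75 reached 1 TPM in any one library. A gene was therefore tested in a line only if 4 or more of its libraries reached 1 TPM. In A549 45 members passed, in NCI-H23 51, while LN229 had 46 and LN319 40, and 28 passed in every line and 11 in none.

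The summed level of all 75 members set the double knockdowns apart. In A549 the sums were 301, 298 and 441 TPM in Control KD, 384, 354 and 395 in TRA2A KD, 403, 383 and 354 in TRA2B KD, and 1414, 1558 and 1792 in TRA2A/B DKD. In NCI-H23 they were 359, 434 and 449 TPM in Control KD, 620, 513 and 621 in TRA2A KD, 547, 483 and 507 in TRA2B KD, and 2504, 1938 and 2395 in TRA2A/B DKD. Every double-knockdown library lay above every other library of its line, and the mean sum was 4.58 times that of Control KD in A549 and 5.51 times in NCI-H23.

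**Figure D1:**
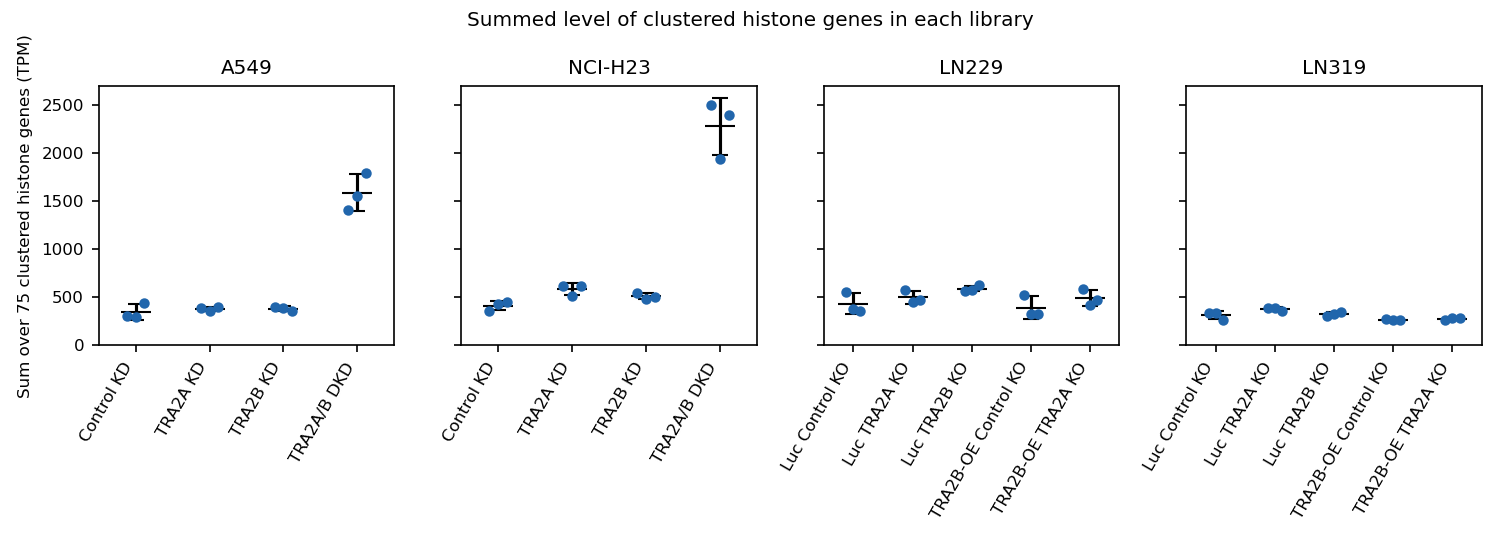
Sum of the deposited TPM over the 75 clustered histone genes (y axis) in each of the 54 libraries, by line and group (x axis); each point is 1 library and the bar is the group mean. The TRA2A/B DKD libraries reached 1414 to 1792 TPM in A549 and 1938 to 2504 TPM in NCI-H23, against at most 624 TPM in any other library.

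In the glioma lines the sums stayed within a narrower band. LN229 sums were 559, 380 and 361 TPM in Luc Control KO, 574, 447 and 474 in Luc TRA2A KO, 570, 581 and 624 in Luc TRA2B KO, 527, 325 and 328 in TRA2B-OE Control KO, and 582, 422 and 474 in TRA2B-OE TRA2A KO. LN319 sums were 338, 334 and 265 TPM in Luc Control KO, 391, 389 and 352 in Luc TRA2A KO, 310, 331 and 346 in Luc TRA2B KO, 272, 259 and 262 in TRA2B-OE Control KO, and 268, 281 and 280 in TRA2B-OE TRA2A KO. The first replicate was the highest of its group in LN229 Luc Control KO, Luc TRA2A KO, TRA2B-OE Control KO and TRA2B-OE TRA2A KO. In LN319 the 3 Luc TRA2A KO libraries all lay above the 3 Luc Control KO libraries.

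Carry-over of RNA without a tail was gauged by summing RNAs that carry none (RN7SK, RN7SL1, small nuclear and other structured RNAs; 26 genes). In A549 the sums were 743, 594 and 1318 TPM in Control KD and 599, 655 and 578 TPM in TRA2A/B DKD. Replicate 3 of Control KD thus had both the highest tail-less sum and the highest histone sum of its group. In NCI-H23 they were 1514, 952 and 1512 TPM in Control KD and 3126, 909 and 985 TPM in TRA2A/B DKD, where replicate 1 stood apart on this gauge and had the highest histone sum. Of the listed RNAs, 15 were tested in A549 with 0 higher and 2 lower (RN7SL1, log2 fold change -0.74, and RN7SL2, -1.05). Of 17 tested in NCI-H23, 0 were called by limma. RN7SL1 itself was at -0.02 in NCI-H23. The replicate 2 and 3 double knockdowns of NCI-H23 had tail-less sums below or near the lowest Control KD library, and histone sums of 1938 and 2395 TPM. Without replicate 1 of that double knockdown 27 members were called higher in place of 30. The part of tail-less RNA in the histone values was not tested.

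The double knockdown was compared gene by gene with its Control KD, by limma on log2(TPM + 0.1) with Benjamini-Hochberg adjustment over all genes tested. A gene was called at an adjusted p under 0.05, and fold changes of genes with low levels depend on the 0.1 that was added. They understate a change between low levels, and they can exceed the ratio of the means where a control library is listed at 0. In A549, 22 of 45 clustered histone genes were called higher and 1 lower (HIST1H2BL). Among all 16405 genes tested, 14.3% were called higher and 16% lower. In NCI-H23, 30 of 51 were called higher and 0 lower, against 19.2% higher and 23.9% lower of 16293 genes. The median log2 fold change of the members tested was 1.59 in A549 and 1.49 in NCI-H23, and that of all genes was 0.04 and 0.00. In A549, 23 members had all 3 double-knockdown libraries above all 3 controls, and in NCI-H23, 36 did, where 23.8% and 33.1% of all genes did so.

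With an absolute log2 fold change above 1 required as well, 23 members were called in A549 and 27 in NCI-H23, against 12.8% and 12.8% of all genes. Without A549 Control KD replicate 3, whose histone and tail-less sums were high, 27 members were called in A549, 25 of them higher. The share of all genes called in that fit is not given here. The filter did not make the counts of members called higher with all libraries. When only the libraries other than the double knockdown could pass a gene, 44 of the 45 A549 members still passed, with 21 called higher, and 49 of the 51 NCI-H23 members, with 29 called higher. In the same samples 38 of 43 S phase genes in A549 and 41 of 43 in NCI-H23 were called lower, as described further on, and their part in the histone values was not tested.

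The only called linker histone gene in A549 was HIST1H1C, which encodes H1.2. Its level was 38.6, 35.5 and 45.3 TPM in A549 Control KD and 177, 197 and 247 TPM in TRA2A/B DKD, and 43.2, 48.7 and 55.9 against 379, 234 and 342 TPM in NCI-H23. The groups did not overlap in either line. HIST1H1C rose by 2.30 on the log2 scale in A549 (SE 0.144, limma adjusted p = 2.14e-06) and by 2.50 in NCI-H23 (SE 0.174, adjusted p = 1.47e-06). In NCI-H23, HIST1H1D (2.92) and HIST1H1E (1.49) also rose, so that 3 of 4 tested H1 genes were called, against 1 of 3 in A549. HIST1H1E was at 8.49, 6.15 and 22.6 TPM in A549 Control KD and 17.1, 19.6 and 17.1 TPM in the double knockdown, where the groups overlapped and no call was made.

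H2A genes, which encode the partner of H2B in the nucleosome, gave the steepest class sums in NCI-H23. Their summed TPM in the double knockdown was 6.18 times that of Control KD in A549 and 7.99 times in NCI-H23, with 6 of 11 and 8 of 13 tested genes called higher. HIST1H2AC had the smallest adjusted p of any member in both lines. Its level was 9.89, 11.1 and 8.69 TPM in A549 Control KD and 118, 115 and 147 TPM in TRA2A/B DKD, and 9.30, 12.1 and 12.6 against 115, 95.3 and 120 TPM in NCI-H23. The groups were far apart in each line. Each line's table was normalized on its own, so levels were not tested between lines. HIST1H2AC rose 12-fold in A549 (log2 fold change 3.59, SE 0.173, limma adjusted p = 5.85e-07) and 8.59-fold in NCI-H23 (3.10, SE 0.0924, adjusted p = 1.04e-08).

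HIST2H2AA3 and HIST2H2AA4 are near-identical copies on chromosome 1, and the quantification split their reads unevenly between libraries. HIST2H2AA4 was listed at 17.8, 13.5 and 0 TPM in A549 Control KD and HIST2H2AA3 at 0.0139, 12.6 and 22.0, so their separate fold changes are uncertain. HIST2H2AA4 in A549 was called (5.59, adjusted p = 0.0171), a larger step than its group means of 10.4 and 157 TPM give, and leaving out TRA2A/B DKD replicate 3 raised the adjusted p to 0.0502. The sum of both copies was 7.73 times the Control KD level in A549 and 9.83 times in NCI-H23. HIST3H2A, from the small HIST3 cluster, was at 3.53, 6.38 and 4.90 TPM in NCI-H23 Control KD and 76.0, 52.5 and 69.0 TPM in the double knockdown (log2 fold change 3.56, limma adjusted p = 1.47e-06). In A549 it was at 5.03, 4.32 and 0 TPM against 32.7, 42.9 and 47.2 TPM, again with no overlap.

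H2B genes made up the largest class and rose less as a sum, at 3.44 times the Control KD level in A549 and 4.31 times in NCI-H23. Of 14 tested in each line, 7 were called higher and 1 lower in A549 and 9 higher in NCI-H23. HIST1H2BK, the most abundant member, was at 67.0, 73.9 and 65.0 TPM in A549 Control KD and 177, 208 and 248 TPM in TRA2A/B DKD, and at 94.2, 134 and 118 against 503, 425 and 474 TPM in NCI-H23. It rose by 1.53 in A549 (SE 0.144, limma adjusted p = 2.69e-05) and by 1.86 in NCI-H23 (SE 0.0968, adjusted p = 2.03e-07) on the log2 scale, a smaller step than most called members from a higher start.

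HIST2H2BE started low and rose steeply. It was at 2.55, 1.85 and 1.89 TPM in A549 Control KD and 33.7, 36.5 and 44.7 TPM in TRA2A/B DKD, and at 4.25, 4.08 and 5.38 against 66.4, 54 and 67.1 TPM in NCI-H23. This amounted to 16.6-fold in A549 (log2 fold change 4.05, SE 0.223, limma adjusted p = 1.28e-06) and 12-fold in NCI-H23 (3.58, SE 0.153, adjusted p = 5.97e-08). Its neighbour by name, HIST2H2BF, was at 3.58, 2.65 and 2.92 TPM in A549 Control KD and 19.6, 25.2 and 24 TPM in the double knockdown (2.80, SE 0.247, adjusted p = 1.83e-05). In NCI-H23 HIST2H2BF was at 1.10, 2.27 and 2.46 against 24.4, 18.5 and 24.2 TPM (3.36). HIST1H2BD rose by 1.67 and 2.55 and HIST1H2BJ by 2.56 and 2.07 in A549 and NCI-H23.

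HIST1H2BG was a member that the 2 lines expressed at different levels. In NCI-H23 it was at 2.44, 2.36 and 2.53 TPM in Control KD and 35.2, 28.9 and 33.8 TPM in TRA2A/B DKD (log2 fold change 3.51, SE 0.184, limma adjusted p = 2.09e-07). In A549 it was listed at 0 in the 3 Control KD libraries and at 1.15, 1.16 and 1.38 TPM in the double knockdown, too few libraries above the filter for a test. HIST1H2BL went the other way in A549, at 2.32, 2.82 and 6.34 TPM in Control KD and 1.51, 0.515 and 1.38 TPM in TRA2A/B DKD (-1.71, SE 0.397, adjusted p = 0.00816). In NCI-H23 HIST1H2BL had overlapping groups and was not called (0.53, adjusted p = 0.609).

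H3 genes moved least, with class sums 2.36 times Control KD in A549 and 2.60 times in NCI-H23, and 2 of 9 and 4 of 10 tested genes called higher. HIST1H3H and HIST1H3E were called higher in both lines. HIST1H3H was at 1.07, 2.50 and 1.40 TPM in A549 Control KD and 11.3, 10.7 and 14.7 TPM in TRA2A/B DKD, and rose by 2.80 in A549 and 2.58 in NCI-H23. HIST2H3A and HIST2H3C held identical values in all 54 libraries and count as 1 measurement.

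H4 genes, all of which encode nearly or exactly the same protein, had class sums 6.60 times Control KD in A549 and 5.81 times in NCI-H23, with 6 of 8 and 6 of 10 tested genes called higher. HIST2H4A and HIST2H4B are also near-identical copies, and their sum was 10 times the Control KD level in A549 and 7.12 times in NCI-H23. HIST2H4B alone was at 15.0, 15.0 and 14.9 TPM in NCI-H23 Control KD and 80.5, 85.0 and 84.1 TPM in TRA2A/B DKD (log2 fold change 2.30, SE 0.088, limma adjusted p = 2.79e-08). HIST1H4H rose by 4.48 in A549 and 3.09 in NCI-H23, and HIST4H4, the single gene on chromosome 12, by 2.39 and 1.85.

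The H4 genes HIST1H4A and HIST1H4C had lower point estimates in both lines. HIST1H4L, not tested in A549, also did in NCI-H23, with overlapping groups (0, 0.389 and 1.74 against 1.06, 0 and 0.385 TPM) and no call. HIST1H4A was at 6.02, 2.45 and 14.1 TPM in A549 Control KD and 2.67, 0 and 1.49 TPM in TRA2A/B DKD (-3.03, limma adjusted p = 0.0511), and at 3.57, 0.935 and 5.72 against 0.602, 0 and 0.932 TPM in NCI-H23 (-2.90, adjusted p = 0.0615). HIST1H4C was at -2.32 (adjusted p = 0.158) in A549 and -0.89 (adjusted p = 0.235) in NCI-H23. The double-knockdown libraries of HIST1H4A lay below every control in NCI-H23 and overlapped them in A549, and none of these differences passed the threshold.

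Placed side by side, 39 members were tested in both lines and 19 were called higher in both. These were 86.4% of the A549 calls and 63.3% of the NCI-H23 calls. Among the 39, 22 were called higher in A549, 24 in NCI-H23 and 11 in neither. A further 6 were called higher in NCI-H23 and not tested in A549. The lines do not share control libraries, and each was fitted on its own.

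**Figure D2:**
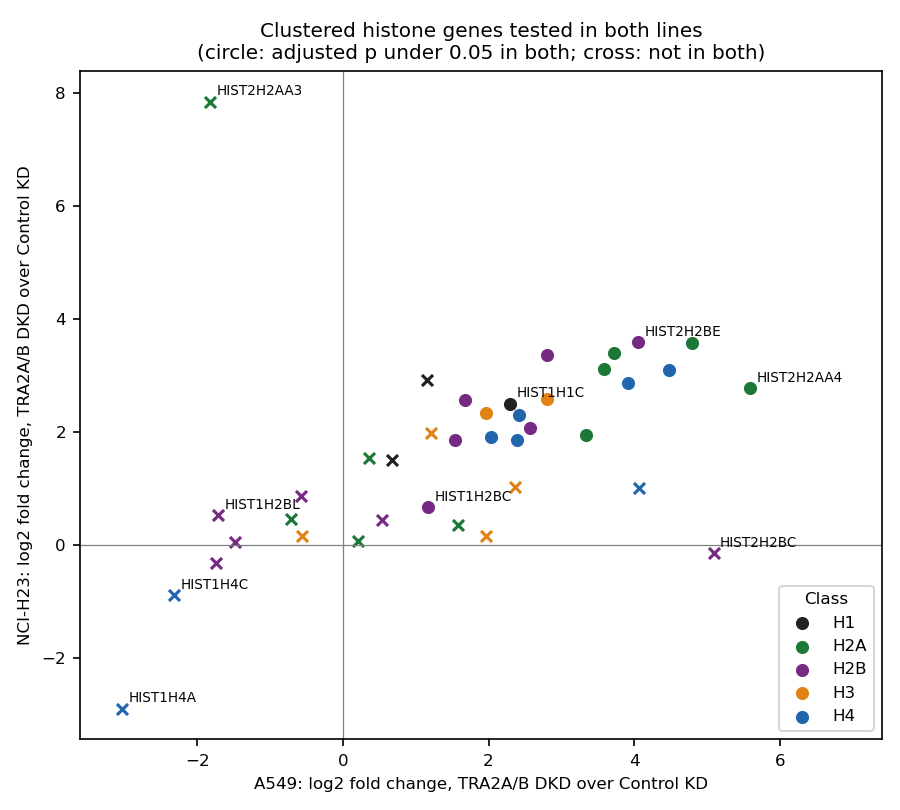
log2 fold change of TRA2A/B DKD over Control KD in A549 (x axis) and NCI-H23 (y axis) for the 39 clustered histone genes tested in both lines, coloured by histone class; circles are genes called in both. The 19 genes called higher in both lie at the upper right, and HIST1H4A lies at the lower left at -3.03 and -2.90.

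Each single knockdown alone moved few members. In A549, 0 of 45 were called in TRA2A KD by limma (10 at an unadjusted p under 0.05) and 0 in TRA2B KD (9 unadjusted), where 0.195% and 0.341% of all genes were called in either direction. The member medians were 0.34 in both comparisons, against 0.04 for all genes. Both comparisons share Control KD, whose replicate 3 correlated least with the other A549 libraries over the members tested (median r 0.46). That library was at 0 TPM for some members, such as HIST3H2A. For others, such as HIST2H3D (14.5 TPM), it was the highest of its group. In NCI-H23 TRA2B KD, 0 of 51 were called (8 unadjusted), with 0.203% of all genes called and a median of 0.13. In NCI-H23 TRA2A KD, 4 of 51 were called higher and 0 lower, against 0.387% and 0.589% of all genes, with a median of 0.34.

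The 4 members called in NCI-H23 TRA2A KD were HIST1H2AC, HIST1H2BJ, HIST1H2BK and HIST2H2BE. HIST1H2AC was at 21.3, 19.3 and 22.5 TPM after TRA2A KD, above the 9.30, 12.1 and 12.6 TPM of Control KD and below the 95.3 to 120 TPM of the double knockdown (log2 fold change 0.91, SE 0.0924, limma adjusted p = 0.00149). HIST1H2BJ was at 12.6, 19.8 and 18.1 TPM in Control KD and 34.1, 33.2 and 32.0 TPM in TRA2A KD (1.02, adjusted p = 0.00216). HIST1H2BK was at 189, 153 and 175 TPM (0.61, adjusted p = 0.0142) and HIST2H2BE at 9.46, 6.13 and 8.32 TPM (0.80, adjusted p = 0.0392). All 4 had no overlap with their controls. With an absolute log2 fold change above 1 required as well 1 was called (0.246% of all genes), a fit on these 2 groups alone called 0 members, and leaving out single libraries ended the call of HIST1H2BK in 3 of 6 fits and of HIST2H2BE in 4 of 6.

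Whether the double knockdown exceeded the sum of both single ones was tested as a contrast on the log2 scale. In NCI-H23, TRA2A averaged 6.84 TPM in TRA2A KD and 21.5 in TRA2A/B DKD, and TRA2B averaged 9.75 in TRA2B KD and 23.3. In A549 these levels were 7.18 and 10.4 TPM for TRA2A and 13.3 and 22.4 TPM for TRA2B. The single knockdowns thus left less target message than the double one, which the contrast does not take into account. In A549, 11 of 45 members were called higher than the sum and 1 lower, against 5.64% and 8.63% of all genes. In NCI-H23, 23 of 51 were called higher and 0 lower, against 7.87% and 13.5%. HIST1H2AC exceeded the sum by 2.51 in A549 (SE 0.245, limma adjusted p = 0.000154) and by 1.76 in NCI-H23 (SE 0.131, adjusted p = 1.47e-05). HIST1H1C exceeded it by 1.79 and 1.63, HIST2H2BE by 2.55 and 2.10, HIST2H4B by 3.13 and 1.69, and HIST1H2BK by 0.76 and 1.05. HIST1H2BL was the member below the sum in A549 (-2.47, adjusted p = 0.0156). Without A549 Control KD replicate 3, 17 members were called in this contrast in A549, and the share of all genes called then is not given here.

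In LN229 with luciferase, TRA2A KO called 0 of 46 members (4 at an unadjusted p under 0.05; 3.71% of all genes called) and their median log2 fold change was 0.01. TRA2B KO also called 0 of 46 (13 unadjusted; 0.573% of all genes called), but the median was 0.47, 41 members had positive estimates and 22 had all 3 libraries above every control, where 14.3% of all genes did. HIST1H2BG was nearest to a call, at 4.03, 3.20 and 3.08 TPM in Luc Control KO and 5.57, 7.06 and 6.0 TPM in Luc TRA2B KO (0.79, SE 0.169, limma adjusted p = 0.0549). HIST2H2BE was at 15.0, 7.09 and 7.17 against 17.7, 17.9 and 17.7 TPM (0.91, adjusted p = 0.125), so the size of its difference depended on the first control library. Without Luc Control KO replicate 1, which also had the highest histone sum of its group, 9 members were called higher. The 0.573% belongs to the fit with all libraries. The share of all genes called without that library is not given here, so the 9 cannot be set against it.

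In LN319 with luciferase, TRA2A KO called 6 of 40 members higher and 0 lower, against 6.92% and 7.39% of all genes. They were HIST1H2BD, HIST3H2A, HIST1H2BG, HIST2H2BE, HIST2H2BB and HIST4H4, at log2 fold changes of 0.61 to 1.29. HIST1H2BD was at 17.7, 21.3 and 16.5 TPM in Luc Control KO and 31.7, 31.8 and 28.2 TPM in Luc TRA2A KO (0.77, SE 0.0903, limma adjusted p = 0.000287). HIST3H2A was at 9.15, 7.56 and 6.48 against 11.3, 12.1 and 10.8 TPM (0.61, adjusted p = 0.00287). Neither overlapped its controls, and both calls held in all 6 fits that left out 1 library. With an absolute log2 fold change above 1 required as well, 2 members were called (1.88% of all genes). The calls of HIST1H2BG, HIST2H2BE and HIST2H2BB were lost in 3 or 4 of those 6 fits. The summed tail-less RNAs were 1770, 1899 and 1489 TPM in these controls and 803, 918 and 743 TPM in Luc TRA2A KO, and their part in the histone values was not tested.

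LN319 Luc TRA2B KO split the members. Of 40, 5 were called higher and 3 lower, against 18.8% and 23.8% of all genes, so the share called was below that of all genes in both directions. With an absolute log2 fold change above 1 required as well, 2 members were called (3.93% of all genes). HIST1H2BD rose again, to 27.9, 28.4 and 34.7 TPM (log2 fold change 0.61, limma adjusted p = 0.000251), and HIST1H2BG went from 0.627, 0.534 and 0.193 to 2.03, 1.95 and 2.41 TPM (2.02, adjusted p = 0.000562). HIST4H4, HIST1H4K and HIST2H2BE also rose, by 1.02, 0.70 and 0.44. The abundant HIST1H2BK fell from 39.0, 31.2 and 27.6 to 19.2, 23.4 and 21.7 TPM (-0.70, adjusted p = 0.00495), and HIST1H2BJ (-0.73) and HIST1H1C (-0.39, adjusted p = 0.0488) fell as well. The members HIST1H2BK, HIST1H2BJ and HIST1H1C were thus lower in this knockout and higher in both double knockdowns. Different lines and systems were used, and this difference was not tested.

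Overexpression of TRA2B alone led to few calls among the members. TRA2B averaged 832 ± 112 TPM in LN229 TRA2B-OE Control KO and 765 ± 81.5 TPM in LN319 TRA2B-OE Control KO (SD, n = 3). Against Luc Control KO, 0 of 46 members were called in LN229 (5 at an unadjusted p under 0.05; 1.04% of all genes called), with a median of -0.39. Only 7 of the 46 estimates were positive, and the median of all genes was -0.001. In LN319, 9 of 40 estimates were positive, with a median of -0.26 against -0.02 for all genes. Of these 40 members, 0 were called higher and 4 lower, against 2.15% and 2.03% of all genes. These 4 were HIST1H1C (55.1, 52.4 and 44.6 to 31.0, 33.3 and 39.0 TPM; -0.64, limma adjusted p = 0.0351), HIST2H4A (-0.52), HIST2H2AA4 (-0.79) and HIST2H2AC (-0.64). None had an absolute log2 fold change above 1 (0.689% of all genes were called with one), and each of the 4 calls was lost in at least 5 of the 6 fits that left out 1 library.

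With TRA2B overexpressed, TRA2A KO called 1 of 46 members higher in LN229, HIST1H2BK, against 2.4% of all genes called higher and 3.61% lower. TRA2A itself was not called lower in this knockout. HIST1H2BK went from 83, 64.4 and 70.8 to 99.7, 91.4 and 108 TPM (log2 fold change 0.44, limma adjusted p = 0.0453). Its call was lost in 5 of 6 fits that left out 1 library. With an absolute log2 fold change above 1 required as well, 1.1% of all genes were called. In LN319, 0 of 40 were called (3 unadjusted; 2.77% of all genes called). The contrast that asks whether TRA2B-OE altered the response to TRA2A KO called 0 members in LN229 (0 at an unadjusted p under 0.05) and 0 in LN319 (4 unadjusted), where it called 0% and 0.0207% of all genes. HIST1H2BD in LN319 responded to TRA2A KO by 0.77 with luciferase and by 0.14 with TRA2B-OE, and the difference of -0.63 was not called (SE 0.128, adjusted p = 0.254).

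**Figure D3:**
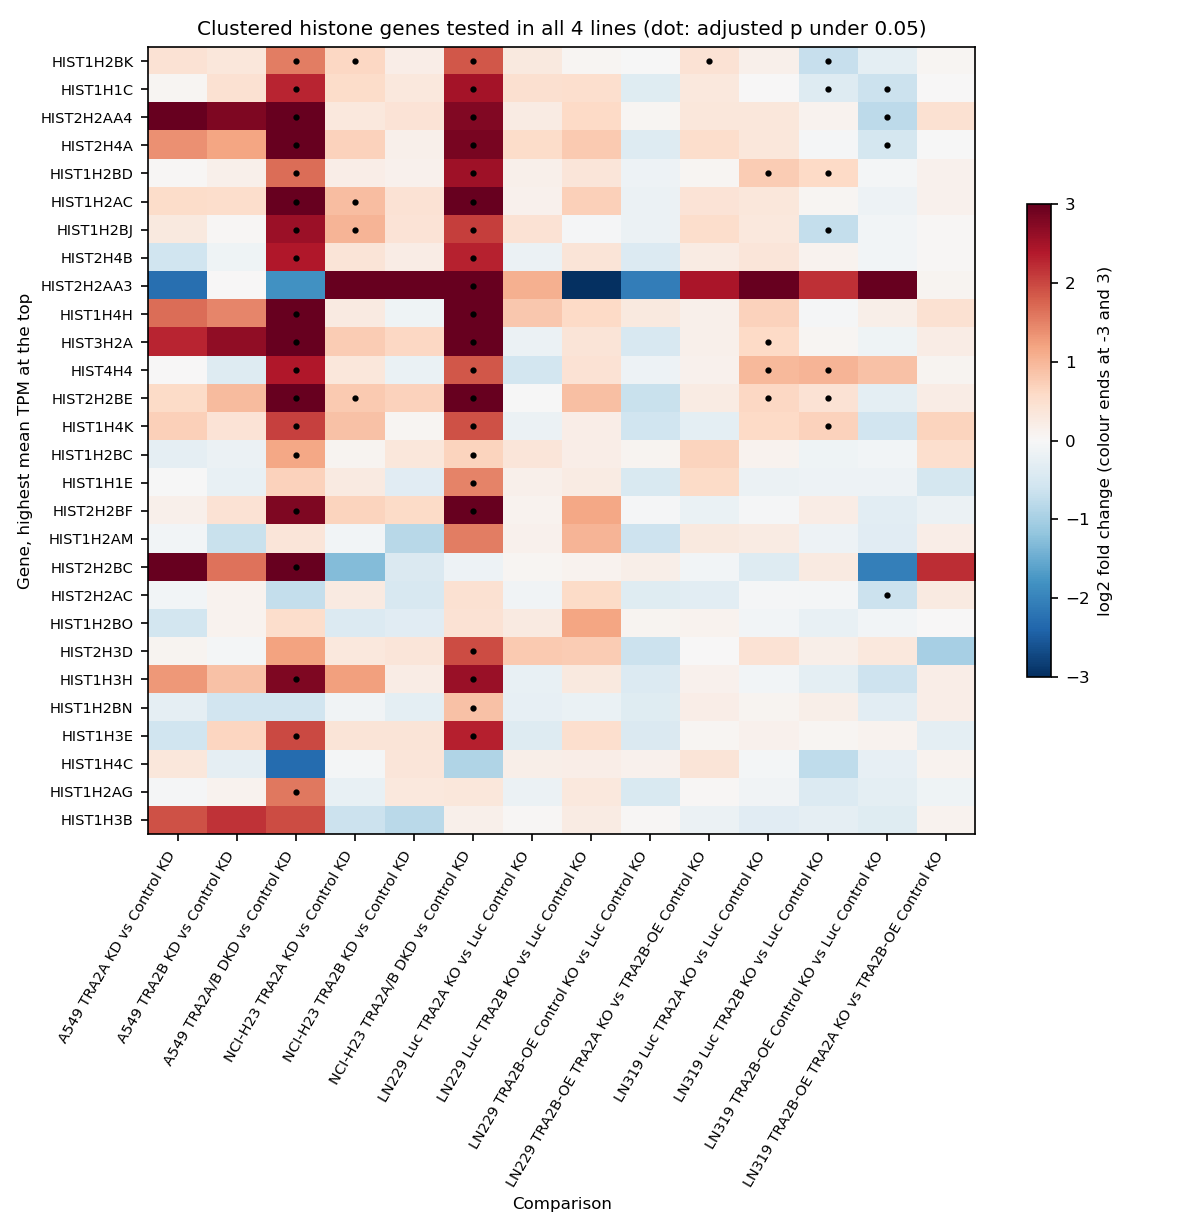
log2 fold change (colour) of the 28 clustered histone genes tested in all 4 lines (rows, highest mean TPM at the top) in each of the 14 comparisons (columns); a dot marks an adjusted p under 0.05. The columns of the A549 and NCI-H23 TRA2A/B DKD hold most of the dots, while the LN229 columns hold 1.

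Replication-independent histone variants have ordinary polyadenylated mRNAs, and they give a contrast within the histone family. Of 12 listed, 11 were tested in each lung line, and the double knockdown called 4 higher and 3 lower in A549 and 4 higher and 5 lower in NCI-H23. Their medians were -0.38 and -0.17. Of all A549 genes, 14.3% were called higher and 16% lower, and of all NCI-H23 genes 19.2% and 23.9%. Whether the variants departed from these shares was not tested. The linker variant H1F0, known for rising in non-dividing cells, rose by 1.44 in A549 (limma adjusted p = 1.5e-05) and 1.55 in NCI-H23 (adjusted p = 7.6e-08). H2AFJ rose by 1.16 and 0.92. H2AFX, whose current symbol is H2AX and which is the variant with both a stem-loop motif and a tailed message, fell by 1.00 in A549 (adjusted p = 0.0006). In NCI-H23 it fell by 0.17, a call lost in 5 of 6 fits that left out 1 library. H2AFZ, which encodes H2A.Z, fell by 0.59 in NCI-H23 and was at -0.47 in A549, where it was not called.

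Factors that make or control histone mRNA ends were mostly lower where they were called. Of 23 listed, all were tested, with 1 called higher and 9 lower in A549 and 3 higher and 9 lower in NCI-H23. For comparison, the double knockdown called 14.3% of all A549 genes higher and 16% lower. For NCI-H23 genes these shares were 19.2% and 23.9%. Whether the list departed from them was not tested. The endonuclease CPSF3 fell by 0.63 and 0.51, the cleavage factor CSTF2 by 0.51 and 0.52, the cap-binding subunit NCBP1 by 0.62 and 0.45, and CDK2, the kinase partner of cyclin E, by 0.89 and 0.82 in A549 and NCI-H23. Among the genes called, CCNE1 and SRRT reached the smallest adjusted p of the list. Their values, and those of the genes called higher, are not given here. SLBP, the stem-loop binding protein, was at 44.1, 57.4 and 34.5 TPM in A549 Control KD and 32.9, 33.7 and 37.6 TPM in TRA2A/B DKD (log2 fold change -0.43, limma adjusted p = 0.161). Without Control KD replicate 3 its adjusted p was 0.00283. In NCI-H23 SLBP was at 61.1, 78.3 and 66.4 against 59.4, 45.5 and 60.2 TPM (-0.49, adjusted p = 0.0091).

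S phase genes went opposite to the clustered histone genes. Of 43 listed and tested, 0 were called higher and 38 lower in the A549 double knockdown, and 0 higher and 41 lower in that of NCI-H23, with medians of -1.16 and -0.87. The share of all genes called lower was 16% for A549 and 23.9% for NCI-H23. RRM2, a subunit of ribonucleotide reductase, fell by 2.86 and 1.29, the histone chaperone gene NASP by 1.99 and 1.51, and the cell cycle repressor gene E2F8 by 1.93 and 1.92. In the single knockdowns of both lines 0 of the 43 were called. Whether the S phase genes and the clustered histone genes moved in the same cells cannot be told from bulk RNA.

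**Figure D4:**
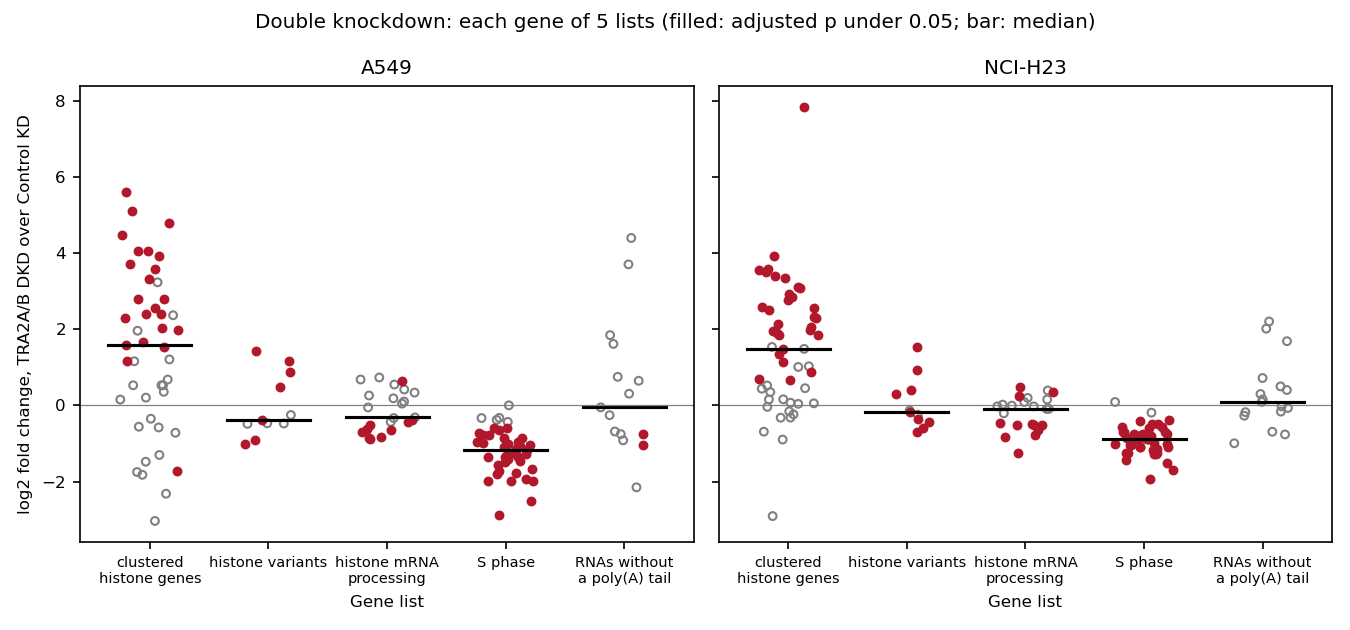
log2 fold change of TRA2A/B DKD over Control KD (y axis) for each tested gene of 5 lists (x axis) in A549 and NCI-H23; filled points have an adjusted p under 0.05 and the bar is the list median. The medians are 1.59 and 1.49 for clustered histone genes and -1.16 and -0.87 for S phase genes.

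The members were also described by where their annotated models end, which the choice by name did not use. In Gencode release 44, 17 of the 70 members with a stem-loop had at least 1 model that ran 100 bases or more past it, and adding the gene ends of RefSeq brought in HIST1H2BK for 18. Of the A549 double-knockdown calls, 21 members higher had a stem-loop and 14 of these had such a long model in either annotation, against 2 of 21 tested and not called. HIST1H2BL, called lower, had none. In NCI-H23 it was 15 of 30 called higher, against 0 of 20 not called. Level was not matched between these groups. Over all NCI-H23 libraries, double knockdown included, the 20 not called averaged at most 6.90 TPM each. The long-model HIST1H2BK, HIST2H4A and HIST1H2AC averaged 224, 65.0 and 39.8 TPM, but HIST1H3E, HIST1H3H and HIST1H2BN only 1.66, 3.68 and 3.87. The near-identical HIST2H4A and HIST2H4B were counted as 2 members. No test was made on this, and the models are of a later Gencode release than the one behind the TPM.

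**Figure D5:**
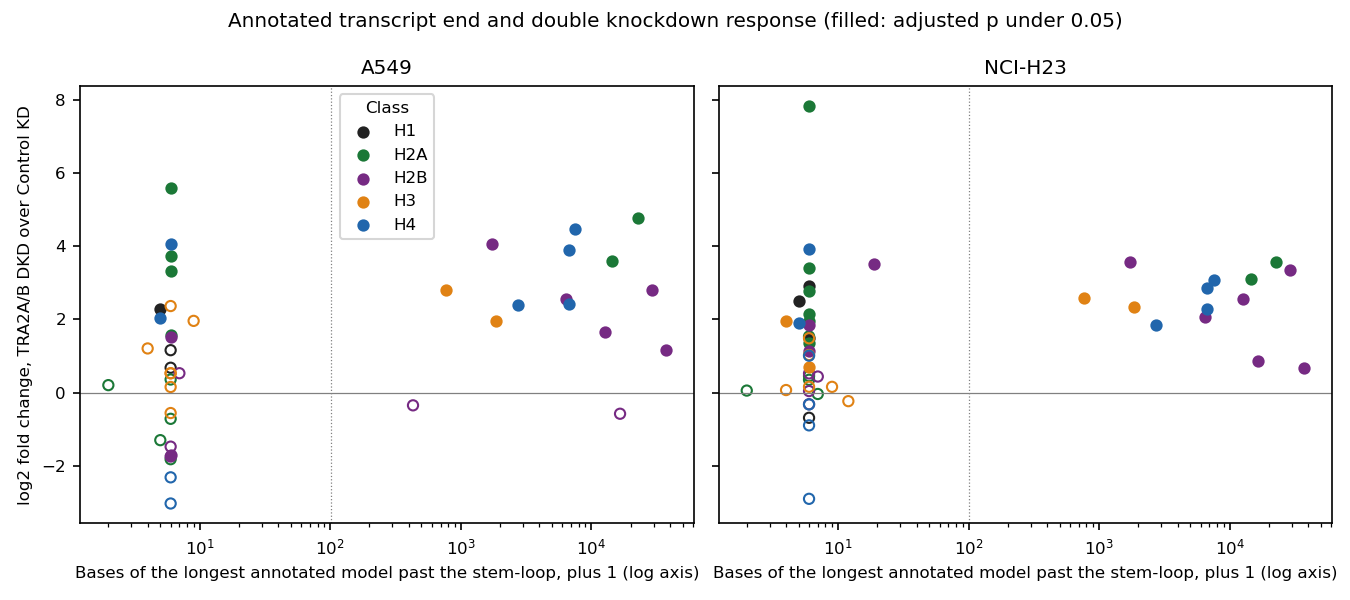
Bases by which the longest Gencode release 44 model of each member runs past its stem-loop, plus 1 on a log axis (x axis), against the log2 fold change of TRA2A/B DKD over Control KD (y axis) in A549 and NCI-H23; filled points have an adjusted p under 0.05 and the dotted line marks 100 bases. In NCI-H23 no gene to the right of the line is unfilled.

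A downstream AATAAA, the commonest polyadenylation hexamer, lay within 20 bases of the stem-loop in 4 members. It began 12 bases after the stem-loop of HIST1H1C and HIST1H2BD and 13 bases after that of HIST2H2AA3 and HIST2H2AA4, and the next nearest among members was 102 bases away. All 4 were called higher in the NCI-H23 double knockdown, and all but HIST2H2AA3 in A549. Neither a long model nor a hexamer within 20 bases was found for 5 of the 21 called higher in A549 (HIST1H2AG, HIST1H2AI, HIST1H2AK, HIST1H4B and HIST1H4K) and for 12 of the 30 called higher in NCI-H23. Of these, HIST1H2AI, HIST1H2AK and HIST1H4K were called in both lines, and the other 9 of NCI-H23 were HIST1H1D, HIST1H1E, HIST1H2AE, HIST1H2AL, HIST1H2BG, HIST1H2BH, HIST1H3G, HIST1H4D and HIST2H3D. TPM of a gene sums over its transcript models, so these values do not say which end a read came from.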

How the data were processed

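Poly(A) RNA from 54 libraries was read as 150 bp pairs by the authors. The authors quantified transcripts with kallisto 0.48.0 on a Gencode annotation of GRCh38 and deposited gene-level TPM by older symbols, in 1 table per line. The authors state a minimum depth common to all libraries, but TPM holds no depth, so that of each library is unknown and no counting interval is given, and 0 can be a failed estimate. The rows used summed to 928908 to 964610 TPM per library. The submitters' processing notes also name STAR 2.7.3.

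Here TPM was divided by a trimmed-mean scaling factor (30% of log ratios and 5% of abundances trimmed), a pseudocount of 0.1 was added, and log2 values were fitted with limma 3.58.1 (R 4.3.3; empirical Bayes with a trend), each line on its own and with all its groups. Genes needed 1 TPM in 4 libraries. Tests were two-sided, with Benjamini-Hochberg adjustment over all genes of a comparison and a threshold of 0.05. The published count model was not used, because the values are TPM. Members and lists were chosen with earlier results of these data known. Genes named were the 8 most abundant members, up to 5 called members of smallest adjusted p per comparison whose groups did not overlap, members in counts of 5 or fewer, the targeted genes, and up to 6 called genes per list with SLBP; HIST1H1D, HIST1H1E, HIST1H2BL, HIST1H3E, HIST1H3H, HIST1H4A, HIST1H4C, HIST1H4H, HIST1H4K, HIST3H2A and HIST4H4 in the lung lines, HIST2H2BE in LN229 and those of the model comparison were added after their values were seen. Current symbols, gene ends and classes came from RefSeq, and stem-loops were read from GRCh38 with Gencode release 44. The fit was tested on simulated data, where it recovered 45.4% and 70.5% of genes changed by 1 and 2 on the log2 scale in the A549 double knockdown and 63.9% and 76.3% in that of NCI-H23. The simulation drew normal noise with each gene's own spread and changed far fewer genes than were called in the double knockdowns. These percentages therefore need not hold for the real comparisons. Alternatives were another pseudocount, no filter, no scaling, only the compared groups, a replicate block, a minimum log2 fold change of 1, each library left out, and near-identical copies summed.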

Additional observations from a re-analysis of the deposited data

Results flagged for a closer look

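The response of clustered histone genes to TRA2A knockdown differed with TRA2B knockdown, by the limma contrast of the double against both single knockdowns, for 12 members in A549 and 23 in NCI-H23. Of the A549 members 11 were above the sum of the single effects, and in NCI-H23 all 23 were.

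For 3 members all 3 libraries moved one way in 1 line and the opposite way in the other under the same perturbation. HIST4H4 under Luc TRA2A KO was at -0.54 in LN229 (log2 fold change) and 0.98 in LN319. HIST1H1C under Luc TRA2B KO was at 0.51 in LN229 and -0.39 in LN319. HIST2H4B under TRA2A KD was at -0.59 in A549 and 0.39 in NCI-H23, and its reads may be shared with HIST2H4A, which was at 1.36 and 0.69. Only HIST4H4 and HIST1H1C in LN319 were called. The shares of all genes wholly on the same side of their controls were 12.8% in LN229 and 13.4% in LN319 for HIST4H4. They were 14.3% and 22.1% in the same lines for HIST1H1C, and 11.5% in A549 and 6.39% in NCI-H23 for HIST2H4B. How many of all genes moved in opposite ways was not counted, and these differences between lines were not tested.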

How the results depend on the processing

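Both double-knockdown counts stayed within 1.5 times under every alternative tried. So did both contrasts of the double against the single knockdowns under the other pseudocount, no filter, no scaling, the replicate block and each library left out, and the minimum fold, compared groups and summed copies were not run for contrasts. When 1 library was left out there were 19 to 27 members called in A549 and 26 to 30 in NCI-H23, and 10 to 17 and 16 to 24 in the contrasts. The median log2 fold changes moved more. With a pseudocount of 1 the double-knockdown medians were 1.08 in A549 and 1.31 in NCI-H23, and that of A549 TRA2B KD was 0.15. With no filter they were 1.01 and 1.29, with 0.089 for A549 TRA2A KD, 0.14 for A549 TRA2B KD, -0.087 for LN319 TRA2B-OE Control KO and 0.010 for LN319 TRA2B-OE TRA2A KO. With only the compared groups A549 gave 1.99 for the double knockdown and 0.17 for TRA2B KD. With no scaling NCI-H23 gave 1.66 for the double knockdown and 0.24 for TRA2B KD, where the median of all genes was 0.17 and 0.12. It also shifted the median of all genes to -0.12 in A549 TRA2A KD, 0.26 in the A549 contrast of double against single knockdowns and 0.12 in LN319 Luc TRA2B KO.

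Small counts changed. NCI-H23 TRA2A KD called 2 members with no filter, 2 with no scaling, 1 with a minimum log2 fold change of 1 and 0 with the compared groups alone. LN229 TRA2B-OE TRA2A KO called 0 with no filter, with the minimum fold or with the compared groups. LN319 Luc TRA2A KO called 3 with no filter and 2 with the minimum fold or the compared groups, and Luc TRA2B KO called 2 with the minimum fold. LN319 TRA2B-OE Control KO called 0 with no filter, the minimum fold or the compared groups, 1 with no scaling and 2 with near-identical copies summed, an alternative chosen after seeing the data. The cause was not tested.

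Leaving out 1 library gave 0 to 1 calls for A549 TRA2A KD, A549 TRA2B KD and NCI-H23 TRA2B KD, 2 to 7 for NCI-H23 TRA2A KD, 0 to 9 for LN229 Luc TRA2B KO (9 without Luc Control KO replicate 1), 0 to 3 for LN229 TRA2B-OE TRA2A KO, 2 to 7 for LN319 Luc TRA2A KO, 5 to 8 for LN319 Luc TRA2B KO and 0 to 3 for LN319 TRA2B-OE Control KO. Shares of all genes called in these fits are not given here. The member medians ranged from 0.21 to 0.36 in A549 TRA2B KD, 1.40 to 1.69 in the NCI-H23 double knockdown, 0.31 to 0.71 in LN229 Luc TRA2B KO and 0.032 to 0.131 in LN319 TRA2B-OE TRA2A KO. In the NCI-H23 double knockdown RN7SL1 turned from -0.02 to 0.15 with no scaling and ranged from -0.75 to 0.49 with 1 library left out, and RN7SL2 from -0.83 to 0.20.

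Groups share replicate numbers, but no label says what a number marks. No pair of groups had every correlation of same-numbered deviations over 0.1 (0 of 6, 6, 10 and 10 pairs; -0.16 to 0.21), and 9 of 18, 4 of 18, 14 of 30 and 14 of 30 samples correlated best with their own number in A549, NCI-H23, LN229 and LN319. With a replicate block LN229 called 1 member in Luc TRA2A KO, 6 in Luc TRA2B KO and 3 in TRA2B-OE TRA2A KO.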
